A study of Brassica napus with 17 samples.

Results

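RNA of 2 stretches of the oilseed rape (Brassica napus) gene set was followed, library by library, in microspore cultures of the doubled haploid line DH12075. The A10 block comprises the gene IDs BnaA10g23820D to BnaA10g25510D and the C09 block the IDs BnaC09g47140D to BnaC09g51110D, each kept where it had at least 10 counts over the 17 libraries. This gave 153 of 170 A10 IDs and 323 of 398 C09 IDs, 476 genes in all out of 75664 IDs that passed the same minimum and 101040 in the table. Of the IDs left out, 17 were in the A10 range, 4 of them with no count, and 75 in the C09 range, 33 of them with no count. The ID ranges were set with results of these libraries known. The rule gives only the ranges and the count minimum, and does not say which values set the ranges. The difference between the day 8 libraries along the chromosomes may have been among them. Levels, and above all the difference between the day 8 libraries, are therefore a description and carry no test.

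All cultures carried a LEC1-GFP reporter and started from late unicellular microspores. TSA (trichostatin A) inhibits histone deacetylases. Heat plus TSA cultures were held at 33 °C for 24 hours with TSA, then moved without it to 25 °C, and were sampled at day 2 (3 libraries), day 4 (3 libraries) and day 8 (2 libraries). Heat-only cultures had the same 24 hours at 33 °C without TSA and were sampled at day 2 and day 4 (3 libraries each). Untreated microspores at day 0 gave the other 3 libraries. Labels put TSA at 0.5 µM for day 2, at 0.05 µM for day 8 and, for day 4, at either value depending on the field, so time and dose of TSA cannot be told apart. Each library came from a pool of microspores of 1 line, and a change in the RNA of a gene per cell cannot be told apart from a change in the number of cells that use it.

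B. napus arose from a cross between B. rapa, the source of its A chromosomes, and B. oleracea, the source of its C chromosomes. A10 and C09 are partly homoeologous: they carry related copies of many of the same ancestral genes, so a gene of one block can have a partner in the other. Homoeologous stretches can recombine at meiosis, the division that yields microspores, and a stretch can then be lost from one chromosome and gained on the other. DNA was not measured in these libraries. The files and the reference used here give no member a name or function, so members are called by their IDs.

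ID numbers follow the chromosome only in part. IDs in the table ran up to BnaA10g30640D and BnaC09g54770D, but higher numbers need not lie further out. In the Da-Ae reference assembly, 4 A10 members are listed under the same ID, all on A10 and in ID order. Of 16 higher-numbered A10 IDs listed there, 5 lie beyond these members and 11 lie before them. For C09, 19 members are listed, all on C09. The 18 from BnaC09g47140D to BnaC09g50690D are in ID order, and none of 9 higher-numbered IDs lies beyond them. The last, BnaC09g50940D, lies before the other 18 and before 159 of the 190 listed C09 IDs with numbers below the block. ID order is used below as gene order, which the reference can show for few of the members and does not show for the highest C09 numbers.

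The libraries held between 2716279 counts (day 0 replicate 3) and 31407037 counts (TSA day 4 replicate 1), and 3 counts stood for 0.0808 to 0.786 CPM. CPM is the count scaled to a library of 1000000 counts, here with TMM-scaled library sizes, whose factors ran from 0.44 to 1.41. The 100 genes outside both blocks that were most abundant in heat-only day 4 cultures held 35.6% to 36% of the counts there. They held 0.593% in TSA day 2 replicate 3, against 0.158% and 0.162% in TSA day 2 replicates 1 and 2. They held 0.041% in TSA day 8 replicate 2 and 0.00392% in TSA day 8 replicate 1.

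The 2 TSA day 8 libraries differed in opposite directions in the 2 blocks. The summed A10 block stood at 1876 CPM in replicate 2 and 1055 CPM in replicate 1, and the summed C09 block at 2584 CPM in replicate 2 and 3409.6 CPM in replicate 1. The sum of both blocks was 4460.0 CPM in replicate 2 and 4464 CPM in replicate 1. How close these sums are depends on scaling, as the TMM factors were 1.201 in replicate 2 and 1.332 in replicate 1. The A10 block held 42.1% of the counts of both blocks in replicate 2 (exact 95% Clopper-Pearson interval 41.8% to 42.4%) and 23.6% in replicate 1 (23.3% to 23.9%). These intervals cover counting error only.

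The difference was spread over the members. Of 64 A10 members with a mean of at least 5 CPM at day 8, 57 were higher in replicate 2 and 7 lower, with a median log2 ratio of replicate 2 to replicate 1 of 0.73 and quartiles of 0.36 and 1.04. Of 109 such C09 members, 93 were lower in replicate 2 and 16 higher, with a median of -0.54. Over all 26154 genes of that level the median was 0.17 and 63.3% were higher in replicate 2, so relative to all genes the A10 block stood at 0.57 and the C09 block at -0.71. The remaining genes of A10 had a median of 0.25 and those of C09 a median of 0.16. Splitting the A10 members into 3 parts of about equal number by level gave medians of 0.61, 0.80 and 0.84 from low to high, and the C09 members gave -0.52, -0.66 and -0.48. The members under 5 CPM went the same way in sum, at 99.5 CPM in replicate 2 and 54.4 CPM in replicate 1 for 89 A10 members, and at 206 CPM in replicate 2 and 319 CPM in replicate 1 for 214 C09 members.

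No other pair of libraries of 1 group showed this. Over the 15 other pairs, the block median of the log2 ratio ran from -0.18 to 0.08 for A10 and from -0.16 to 0.11 for C09. The A10 median minus the C09 median ran from -0.08 to 0.17 in those pairs, against 1.27 in the day 8 pair. Per the labels, day 8 replicates 2 and 1 ran on lanes 5 and 4 of 1 sequencing run, as did replicates 2 and 1 of TSA day 2 and of day 0. Across the same lanes the A10 and C09 medians were 0.06 and 0.04 in the TSA day 2 pair, and 0.002 and 0.01 in the day 0 pair.

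**Figure D1:**
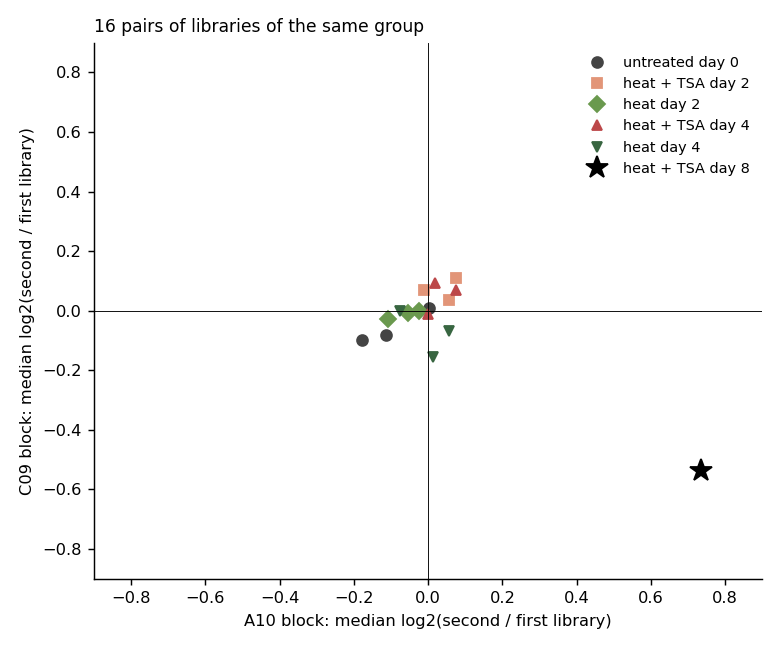
Median log2 ratio of the second to the first library for the C09 block (vertical axis) against the A10 block (horizontal axis), with 1 point for each of the 16 pairs of libraries of the same group. The 15 pairs from day 0, day 2 and day 4 lie within 0.18 of 0 on both axes, and the day 8 pair lies at 0.73 for A10 and -0.54 for C09.

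The 5 most abundant members of each block at day 8 went mostly, but not all, with their block. On A10, 4 of the 5 were higher in replicate 2. BnaA10g24290D had 202 CPM in replicate 2 and 54.6 CPM in replicate 1, BnaA10g25030D had 112 CPM in replicate 2 and 49.6 CPM in replicate 1, and BnaA10g25220D had 72.0 CPM in replicate 2 and 21.4 CPM in replicate 1. In these 3 genes the replicate 2 value was above all 16 other libraries, while the replicate 1 value lay within the range of the earlier libraries. BnaA10g24610D had 122.9 CPM in replicate 2 and 35.3 CPM in replicate 1, and BnaA10g23900D, the exception, had 61.3 CPM in replicate 2 and 89.5 CPM in replicate 1. On C09, 3 of the 5 were lower in replicate 2: BnaC09g48940D had 199 CPM in replicate 2 and 292 CPM in replicate 1, BnaC09g48290D had 153 CPM in replicate 2 and 214 CPM in replicate 1, and BnaC09g49950D had 84.7 CPM in replicate 2 and 125 CPM in replicate 1. The other 2 were higher: BnaC09g50960D had 199 CPM in replicate 2 and 69.2 CPM in replicate 1, and BnaC09g50970D had 122.7 CPM in replicate 2 and 89.4 CPM in replicate 1. Some members of lower level fell more steeply: BnaC09g48340D had 7.44 CPM in replicate 2 and 46.9 CPM in replicate 1, BnaC09g48610D had 2.33 CPM in replicate 2 and 16.8 CPM in replicate 1, and BnaC09g48930D had 4.77 CPM in replicate 2 and 24.5 CPM in replicate 1.

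Both day 8 libraries were also set against day 0. For A10 members of at least 5 CPM over all libraries, the median log2 ratio to the day 0 mean was 0.30 in replicate 2 and -0.40 in replicate 1, where all genes stood at 0 in replicate 2 and at -0.16 in replicate 1. For C09 members it was -0.74 in replicate 2 and -0.30 in replicate 1. Relative to all genes, A10 thus stood above in replicate 2 and below in replicate 1, and C09 further below in replicate 2 than in replicate 1. Against each other group too, A10 was above all genes and C09 below in replicate 2. In replicate 1, A10 was about level with all genes against heat-only day 2 (-0.41, all genes -0.40) and below against the rest. C09 in replicate 1 was below against heat-only day 2 and TSA day 2. It was not below against heat-only day 4 (-0.17, all genes -0.26) or TSA day 4 (-0.26, all genes -0.28).

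The difference began before the lower edge of each ID range. Windows of 15 genes were taken in ID order. Runs were stretches of consecutive windows, taken from the block outward, with medians at least 0.3 in size. Medians had to be positive on A10 and negative on C09. On A10, 14 consecutive windows from BnaA10g20530D to BnaA10g25650D had medians of 0.34 to 1.04, and 9 of these windows lay below the block. The window before the run stood at -0.07 and the window after it at 0.05. The other 54 A10 windows ran from -0.09 to 0.58, so the lower windows of the run overlapped with them. On C09, 11 consecutive windows from BnaC09g45140D to BnaC09g50970D had medians of -1.01 to -0.32, 4 of them below the block, with -0.09 in the window before and 0.23 in the window after. The other 82 C09 windows ran from -0.25 to 0.44. Some genes of the runs lay outside the blocks, on A10 on both sides of the block and on C09 below it. Of these genes, 131 of 146 were higher in replicate 2 on A10 (median 0.62), and 54 of 60 were lower on C09 (median -0.53). The runs were picked by this same ratio, so these counts follow from that choice. The highest C09 numbers did not share the C09 difference. Of 97 C09 members with numbers up to 50870, 90 were lower in replicate 2 (median -0.58), while of 12 with higher numbers 3 were lower and 9 higher (median 0.39). That split was placed after the values were seen. The reference lists 1 of the members above it, BnaC09g50940D, and puts it before the rest of the block, so where these members lie on C09 is not shown by their numbers.

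**Figure D2:**
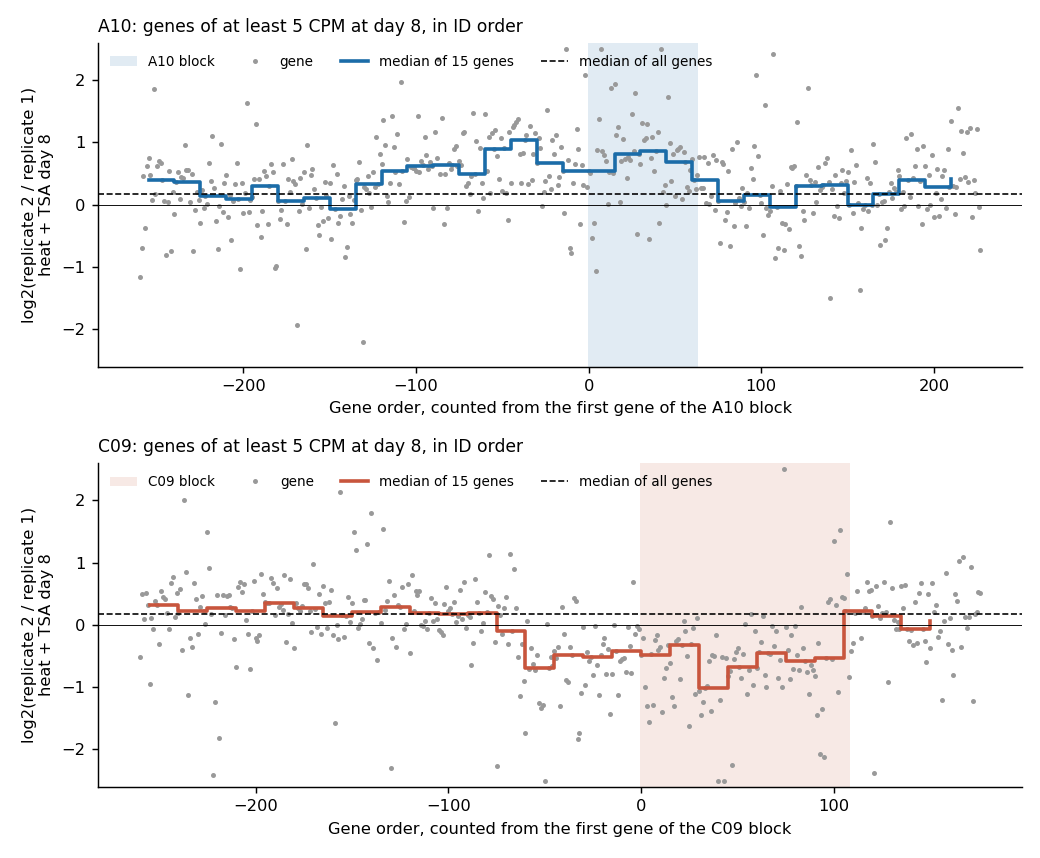
Log2 ratio of TSA day 8 replicate 2 to replicate 1 (vertical axis) for genes of at least 5 CPM, along ID order counted from the first gene of each block (horizontal axis), for A10 above and C09 below. Points are genes, drawn at the frame where they pass 2.5, steps are medians of 15 genes, shading marks the block and the dashed line the median of all genes at 0.17. The steps lie above the dashed line over the 14 windows of the A10 run and below it over the 11 windows of the C09 run. Both runs start left of the shading, and some windows outside them lie on the same side of the line.

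Windows far from the median of all genes were not limited to these chromosomes. Of 1570 windows of 15 genes over the chromosomes with ordered IDs, 9 stood at least 0.5 above the median of all genes, 6 of them in the A10 run and 3 on C02 and C06. Windows at least 0.5 below that median numbered 34, of which 10 were in the C09 run and 24 lay on A03, A05, A06, A07, C01, C03, C04 and C07. These windows were counted singly, so whether those on other chromosomes form runs is not shown. What they share with the A10 and C09 runs was not tested.

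The genes at the edges of the ID ranges show how little the edges mark. At the lower edge of A10, BnaA10g23820D had 24.0 CPM in day 8 replicate 2 and 16.4 CPM in replicate 1, and BnaA10g23830D had 3.32 CPM in replicate 2 and 1.59 CPM in replicate 1. Just outside, BnaA10g23810D had 7.93 CPM in replicate 2 and 6.42 CPM in replicate 1, and BnaA10g23790D had 0.0763 CPM in replicate 2 and was at 0 in replicate 1. At the upper edge, BnaA10g25510D had 28.0 CPM in replicate 2 and 19.9 CPM in replicate 1, BnaA10g25500D was at 0 in both, and just outside BnaA10g25520D had 464 CPM in replicate 2 and 274 CPM in replicate 1, with BnaA10g25530D at 3.97 CPM in replicate 2 and 1.54 CPM in replicate 1. The first 2 C09 members, BnaC09g47140D and BnaC09g47160D, had 3.77 CPM and 0.801 CPM in replicate 2, against 3.98 CPM and 1.22 CPM in replicate 1. Just outside, BnaC09g47120D had 18.7 CPM in replicate 2 and 18.9 CPM in replicate 1, and BnaC09g47130D had 19.6 CPM in replicate 2 and 20.5 CPM in replicate 1. The last members, BnaC09g51090D and BnaC09g51110D, had 0.229 CPM and 9.91 CPM in replicate 2, against 0.319 CPM and 18.1 CPM in replicate 1, and the next genes, BnaC09g51120D and BnaC09g51130D, had 22.9 CPM and 0.725 CPM in replicate 2 and 30.7 CPM and 1.06 CPM in replicate 1.

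Some members went against their block. Among A10 members, beside BnaA10g23900D, BnaA10g23990D had the largest fall, with 5.38 CPM in replicate 2 and 11.8 CPM in replicate 1. The other 5 that were lower in replicate 2 had log2 ratios between -0.55 and -0.004. On C09 the largest exception was BnaC09g50000D, with 46.5 CPM in replicate 2 and 1.01 CPM in replicate 1. This gene averaged 4066 CPM in TSA day 4 cultures, and its like-behaved A10 counterpart BnaA10g25070D had 18.5 CPM in replicate 2 and 0.0531 CPM in replicate 1. The 2 next exceptions, BnaC09g50960D and BnaC09g50910D, had numbers above 50870, and BnaC09g50910D had 18.5 CPM in replicate 2 and 7.01 CPM in replicate 1.

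Members of one block could be matched to members of the other by their profiles in the 15 libraries before day 8, a search made after the values were seen. Among 66 A10 and 141 C09 members with a mean of at least 5 CPM there, 40 pairs were each other's best match by Pearson's r of log2(CPM + 0.5), and 23 of these had an r of at least 0.95. These libraries share their groups, so a high r says only that both genes follow the same groups. Of the 23 pairs, 12 fell in one rising order of IDs on both chromosomes, for example BnaA10g23860D with BnaC09g48600D (r = 0.998), BnaA10g24710D with BnaC09g49640D (r = 0.993) and BnaA10g25070D with BnaC09g50000D (r = 0.995). How reads that match both copies were counted is not given in the sources used here, so the level of a single copy in such a pair is uncertain.

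In 12 of the 23 pairs both members had at least 5 CPM at day 8. The A10 member's share of the pair was higher in replicate 2 in all 12, with a median of 66.5% in replicate 2 and 46.7% in replicate 1, against 46.2% for the medians over the other 15 libraries. In 10 of the 12 pairs the replicate 2 share was above every one of the other 15 libraries. The replicate 1 share lay within their range in 4 of the 12, and in the rest it lay below or above it. For BnaA10g24310D and BnaC09g50780D the A10 member held 18.8% in replicate 1, below the 37.25% to 45.67% of the other 15 libraries. For BnaA10g25220D and BnaC09g50160D it held 66.6% in replicate 1, above their 48.0% to 64.8%. For BnaA10g24600D and BnaC09g47440D, for instance, the A10 member held 81.0% in replicate 2 and 50% in replicate 1, where the other 15 libraries ran from 39.3% to 58.5%. For BnaA10g25300D and BnaC09g50300D it held 56.4% in replicate 2 and 32.8% in replicate 1, where the other libraries ran from 30.2% to 38.1%. The median log2 ratio was 0.85 for the A10 members, -0.52 for the C09 members and 0.15 for the summed pairs. The ratio of a sum always lies between those of its parts, so nothing is read from the last value.

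**Figure D3:**
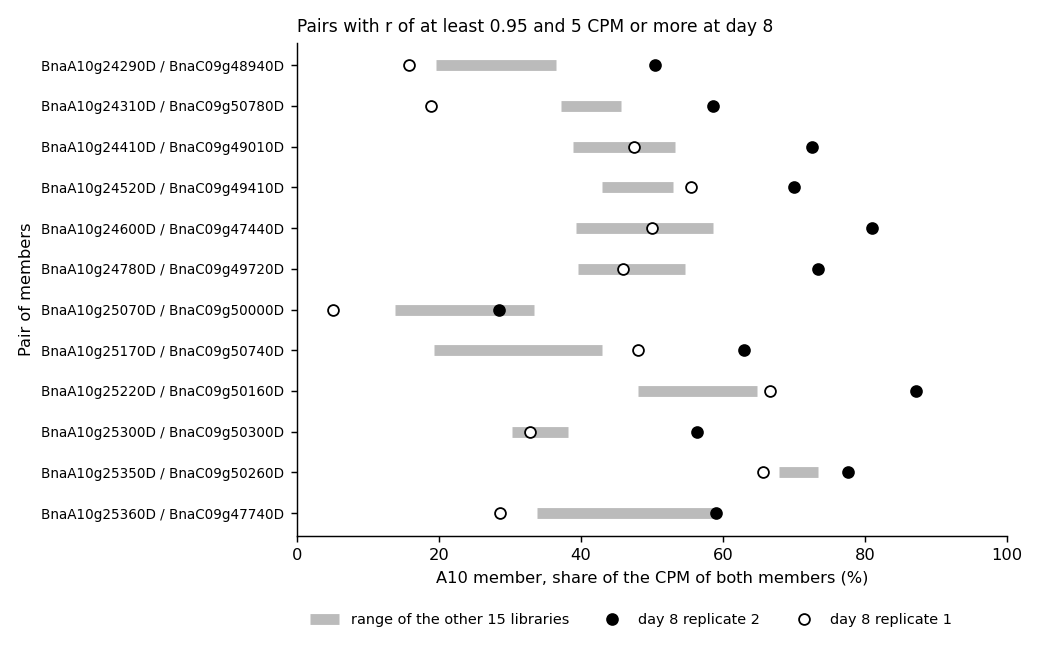
Share of a pair's summed CPM held by its A10 member (horizontal axis, percent) for the 12 pairs of A10 and C09 members with r of at least 0.95 and at least 5 CPM at day 8 (vertical axis). Filled points are day 8 replicate 2, open points day 8 replicate 1, and grey bars the range of the other 15 libraries. The filled point lies right of the open point in all 12 pairs and beyond the grey bar in 10.

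Before day 8, the summed levels of the blocks varied with the group, but single members weighed heavily in the sums. On C09, BnaC09g48600D held 25.8% to 55.5% of the block's CPM in heat-only libraries. BnaC09g50000D held 35.9% to 45.1% of it in TSA day 2 and day 4 libraries. The median C09 member ran only from 2.05 to 3.91 CPM over the libraries before day 8. The A10 block summed to 2079.5 ± 357 CPM in TSA day 2 cultures and 6534 ± 1313 CPM in heat-only day 2 cultures, and to 3143 ± 293 CPM in TSA day 4 cultures and 16729.7 ± 3470.3 CPM in heat-only day 4 cultures, against 1219.8 ± 92.6 CPM at day 0 (SD, n = 3 each). The C09 block summed to 6988 ± 161 CPM in TSA day 2 cultures and 6132 ± 636 CPM in heat-only day 2 cultures, and to 9493 ± 1189.8 CPM in TSA day 4 cultures and 10933 ± 2054 CPM in heat-only day 4 cultures, against 3857 ± 104 CPM at day 0 (SD, n = 3 each). The A10 share of both blocks was 22.8% ± 2.74 with TSA and 51.4% ± 2.26 with heat only at day 2, 24.9% ± 0.604 with TSA and 60.4% ± 0.6 with heat only at day 4, and 24.0% ± 0.95 at day 0 (SD, n = 3 each). The heat-only libraries did not overlap with the other groups, and day 8 replicate 2 lay between them and the rest.

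**Figure D4:**
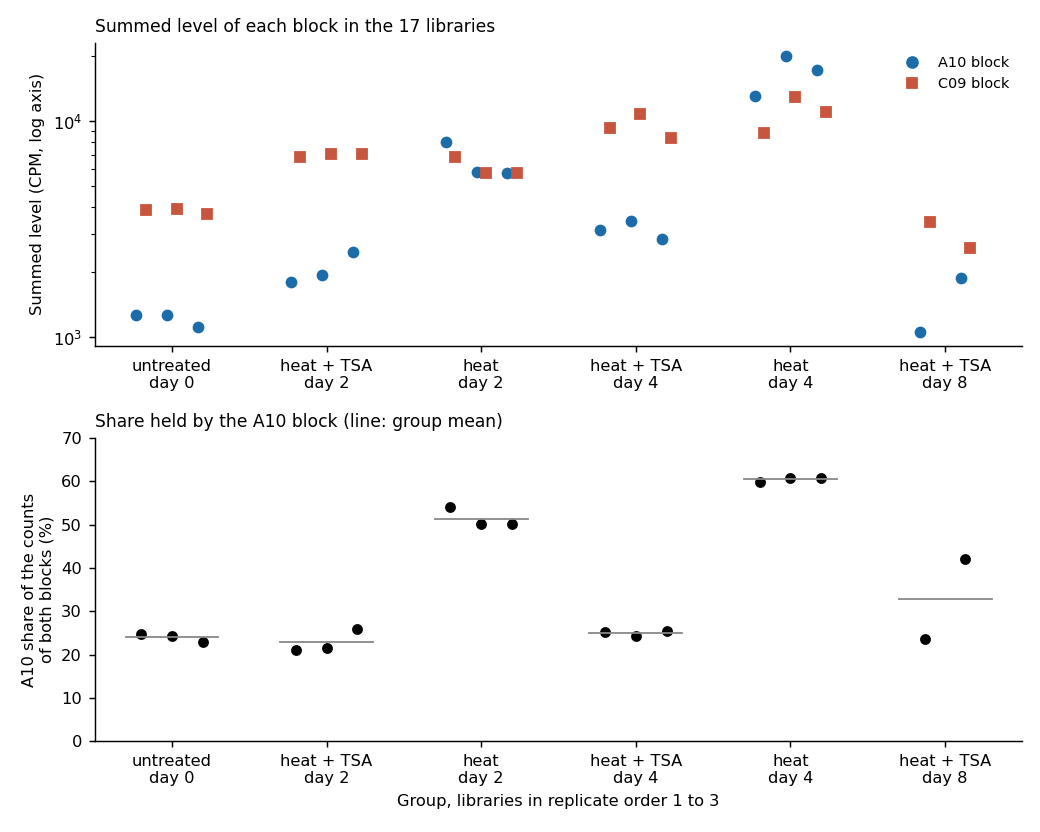
Summed level of the A10 and C09 blocks (upper panel, CPM on a log axis) and share of the counts of both blocks held by A10 (lower panel, percent), 1 point per library, with lines at the group means and bars, smaller than the points, for the exact 95% interval. The share lies between 21.0% and 26.0% in day 0, TSA day 2 and TSA day 4 libraries, above 50% in heat-only libraries, and at 42.1% and 23.6% in day 8 replicates 2 and 1.

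The high A10 share in heat-only cultures rested on a few genes, unlike the share in day 8 replicate 2. BnaA10g23860D, BnaA10g23870D and BnaA10g23880D together held 79.1% to 84.9% of the A10 block's CPM in heat-only day 2 libraries and 89.2% to 91.7% in heat-only day 4 libraries, against 0.906% to 4.46% in the other 11 libraries. Without the 10 most abundant members of each block, the A10 share averaged 24.9% in heat-only day 2 and 27.2% in heat-only day 4 cultures. The order turned with the 20% of members at the lower-numbered edge of each block left out. The A10 share then averaged 23.2% with TSA and 20.1% with heat only at day 2, and 20.7% with TSA and 12.6% with heat only at day 4. This cut removed those 3 A10 genes but kept BnaC09g48600D, so the turned order rests on an uneven removal. BnaC09g48600D held 25.8% to 37.1% of the C09 block's CPM in heat-only day 2 libraries and 48.8% to 55.5% in heat-only day 4 libraries. In day 8 replicate 2 the A10 share was 44.2% without the 10 most abundant members, and in replicate 1 it was 25.4%.

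BnaA10g23860D had 4.97, 6.32 and 49.8 CPM in TSA day 2 libraries, against 4134, 2466 and 2387 CPM in heat-only day 2 libraries. It had 24.1, 59.9 and 68.5 CPM in TSA day 4 libraries, against 7288, 8762 and 8107 CPM in heat-only day 4 libraries. At day 0 it had 6.68, 8.50 and 7.07 CPM. The groups with and without TSA did not overlap at either day, and TSA day 2 replicate 3 lay above the other 2 TSA libraries of that day. The log2 fold change with TSA was -7.21 ± 1.12 at day 2 (SE, adjusted p = 4.0e-05) and -7.31 ± 1.12 at day 4 (adjusted p = 3.6e-05). Its neighbour BnaA10g23870D fell by 7.73 ± 0.91 at day 2 (adjusted p = 1.9e-06) and by 7.49 ± 0.90 at day 4 (adjusted p = 2.4e-06) on the same scale. BnaC09g48600D, the best match of BnaA10g23860D, had 1.15, 1.66 and 16.7 CPM in TSA day 2 libraries, against 2548, 1492 and 1507 CPM in heat-only day 2 libraries, and again TSA day 2 replicate 3 was the highest of its group.

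A second group of members was high with TSA. BnaC09g50000D had 2443, 2707 and 2564 CPM in TSA day 2 libraries, against 52.0, 93.5 and 95.8 CPM in heat-only day 2 libraries. It had 4210.4, 4633 and 3355 CPM in TSA day 4 libraries, against 327, 749 and 576 CPM in heat-only day 4 libraries, and at most 1.69 CPM at day 0. The log2 fold change with TSA was 5.0 ± 0.96 at day 2 (SE, adjusted p = 0.0003) and 2.88 ± 0.87 at day 4 (adjusted p = 0.0087). BnaA10g25070D, BnaC09g48700D and BnaA10g24090D were also highest at TSA day 4, with 755 to 1137 CPM, 1294 to 2653 CPM and 506 to 865 CPM in TSA day 4 libraries. In BnaA10g24090D the TSA day 2 libraries, at 114 to 162 CPM, overlapped with the heat-only day 4 libraries, at 112 to 198 CPM. At day 8 each of the 4 genes was under 50 CPM in both libraries and higher in replicate 2, with BnaC09g48700D at 8.88 CPM in replicate 2 and 0.265 CPM in replicate 1, and BnaA10g24090D at 11.1 CPM in replicate 2 and 1.11 CPM in replicate 1. The 100 genes outside both blocks that were most abundant in TSA day 4 cultures held 4.32% of the counts in day 8 replicate 2 and 3.54% in replicate 1, against 12.1% to 13.8% at TSA day 4.

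**Figure D5:**
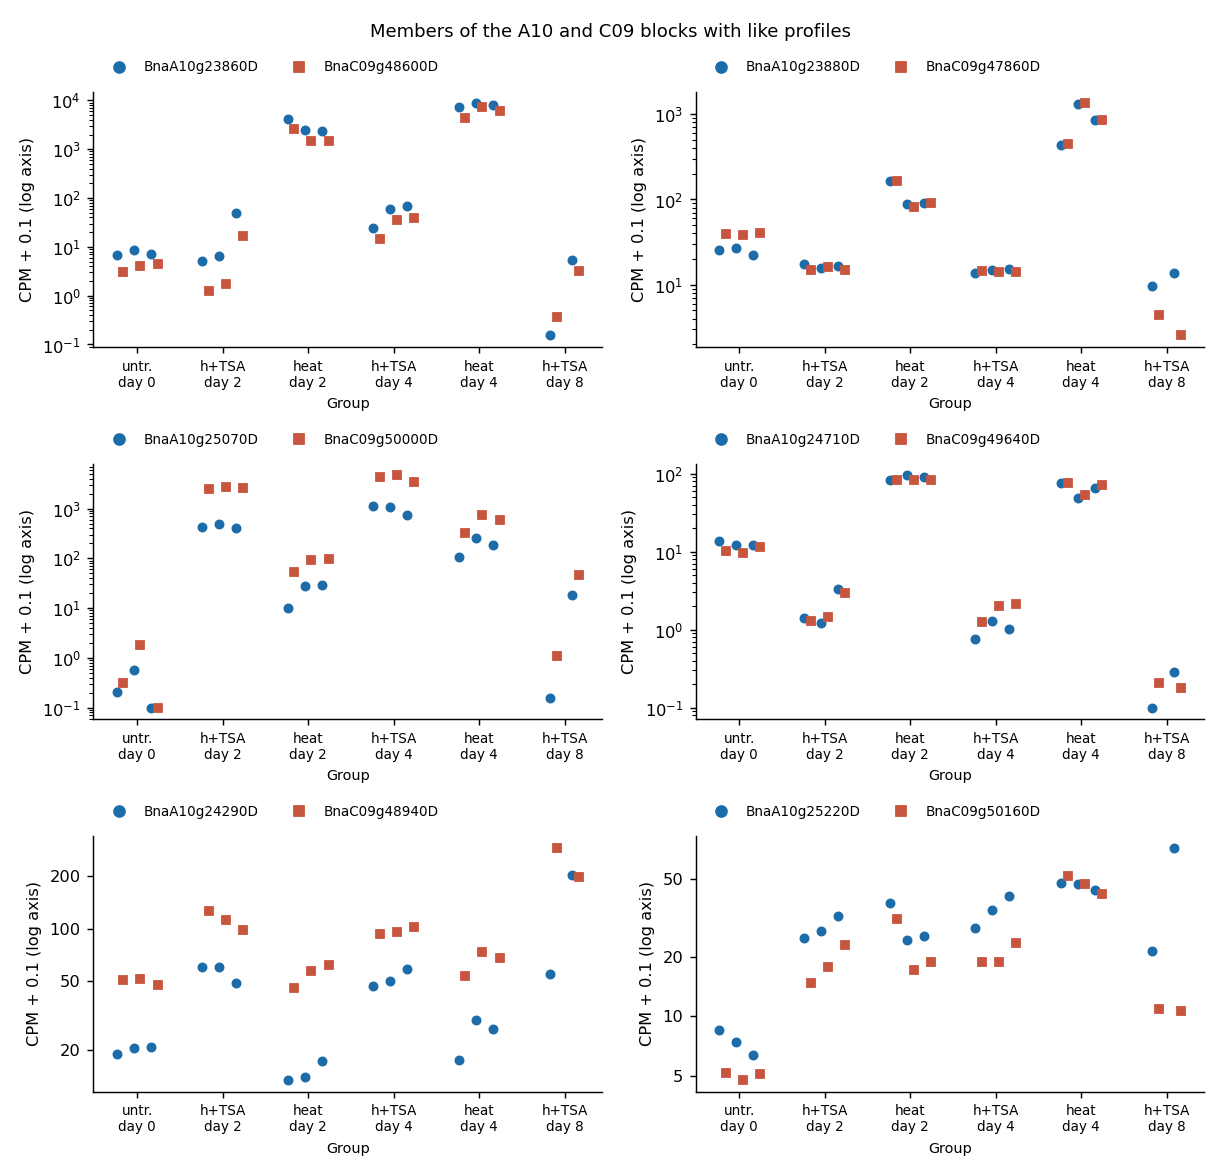
Level of 6 pairs of matched A10 (circles) and C09 (squares) members in the 17 libraries, as CPM + 0.1 on a log axis, by group. Within a pair the members follow the same groups up to day 4. At day 8, right-hand pair of columns in each panel, BnaA10g24290D and BnaA10g25220D are higher in replicate 2 than in replicate 1, while BnaC09g48940D and BnaC09g50160D are not.

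The comparison of TSA with heat alone asks what the inhibitor changes in stressed microspores. Of the 132 A10 and 282 C09 members that passed the filter on low counts, 84 and 179 were called at day 2 (edgeR quasi-likelihood test, adjusted p under 0.05), which is 63.6% and 63.5%, where 66.4% of all genes were called. Of the A10 calls 49 were higher with TSA and 35 lower, and of the C09 calls 105 were higher and 74 lower, with 34.8% of all genes higher and 31.6% lower. At day 4, 89 A10 members (57 higher, 32 lower) and 180 C09 members (118 higher, 62 lower) were called, or 67.4% and 63.8%, where 67.6% of all genes were, 40.3% higher and 27.3% lower. The median log2 fold change at day 2 was 0.12 for A10 and 0.06 for C09, against 0.06 for all genes, and at day 4 it was 0.52 for A10 and 0.56 for C09, against 0.44 for all genes. These shares lie near those of all genes. The directions depend on scaling: with library totals in place of TMM the all-gene median moved by 0.65 at day 2 and by 1.15 at day 4, and 78.5% of A10 and 85.8% of C09 calls were higher at day 2, and 84.9% and 88.7% at day 4, against 58.3%, 58.7%, 64.0% and 65.6% with TMM.

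Members with the lowest p-values in this comparison included 2 pairs matched between the blocks. The matching used these same libraries, so a like change within a pair follows from it and is not a separate result. BnaA10g24710D had 1.29, 1.13 and 3.17 CPM in TSA day 2 libraries, against 83.6, 94.7 and 91.6 CPM in heat-only day 2 libraries, a log2 fold change of -5.66 ± 0.37 (SE, adjusted p = 2.3e-09). Its best match BnaC09g49640D had 1.21, 1.35 and 2.89 CPM with TSA and 83.6, 83.2 and 83.0 CPM with heat only, a change of -5.58 ± 0.30 (adjusted p = 2.4e-10). At day 4 the pair fell by 6.14 ± 0.39 and 5.30 ± 0.29 on the log2 scale (adjusted p = 1.9e-09 and 4.0e-10). Among the rising members, BnaA10g24860D had 9.32, 21.0 and 16.4 CPM in TSA day 2 libraries and at most 0.228 CPM in heat-only day 2 libraries (adjusted p = 1.9e-09), and its match BnaC09g48380D had 35.2, 35.4 and 38.2 CPM in TSA day 4 libraries and 0.176, 0.668 and 1.40 CPM in heat-only day 4 libraries (adjusted p = 5.3e-09). BnaC09g48690D had 23.2, 32.2 and 26.4 CPM in TSA day 2 libraries, against 0.447, 0.406 and 0.319 CPM in heat-only day 2 libraries (adjusted p = 2.5e-09). None of these groups overlapped.

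The effect of TSA differed between day 4 and day 2 for 25 A10 and 57 C09 members (18.9% and 20.2%), where 24.8% of all genes did. The most abundant of them were BnaA10g23880D and BnaC09g47860D, whose levels were close to each other at day 2 and day 4. BnaA10g23880D had 13.5, 14.7 and 15.1 CPM in TSA day 4 libraries and 439, 1319 and 856 CPM in heat-only day 4 libraries. BnaC09g47860D had 14.2, 13.9 and 14.0 CPM with TSA and 442, 1347 and 862 CPM with heat only at that day. At day 2 BnaA10g23880D had 17.6, 15.7 and 16.3 CPM with TSA and 165, 88.4 and 90.2 CPM with heat only. At day 8 BnaA10g23880D had 13.8 CPM in replicate 2 and 9.5 CPM in replicate 1, while BnaC09g47860D had 2.44 CPM in replicate 2 and 4.35 CPM in replicate 1.

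The heat-only day 2 cultures differ from untreated microspores by the heat and by time in culture. Here 60 A10 members (30 higher, 30 lower) and 144 C09 members (71 higher, 73 lower) were called, or 45.5% and 51.1%, where 56.4% of all genes were, 31.1% higher and 25.3% lower. With library totals 25.4% of the A10 and 24.7% of the C09 calls were higher, against 50% and 49.3% with TMM, and the all-gene median moved by -0.70. BnaA10g24890D had 24.1, 21.2 and 19.1 CPM in heat-only day 2 libraries, against 1.83, 1.40 and 2.36 CPM at day 0 (3.64 ± 0.29, adjusted p = 3.0e-08), and BnaC09g47240D had 9.30, 12.5 and 12.2 CPM in heat-only day 2 libraries, against at most 0.296 CPM at day 0 (adjusted p = 5.2e-09). BnaA10g23970D, the most abundant A10 member at day 0, had 6.25, 3.70 and 4.73 CPM in heat-only day 2 libraries, against 143, 127 and 95.1 CPM at day 0 (-4.66 ± 0.28, adjusted p = 1.5e-09). BnaC09g50980D had 20.4, 23.6 and 23.8 CPM in heat-only day 2 libraries, against 106, 112 and 100.3 CPM at day 0 (-2.23 ± 0.16, adjusted p = 1.2e-08), with 65.5, 63.4 and 64.7 CPM in TSA day 2 libraries. In these 4 genes the heat-only and day 0 libraries did not overlap.

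Between heat-only day 4 and heat-only day 2 cultures the test called 50 A10 members (23 higher, 27 lower) and 117 C09 members (47 higher, 70 lower), or 37.9% and 41.5%, where the share over all genes was 45.4%, with 22.2% higher and 23.2% lower. With RLE factors 72.9% of the A10 calls and 66.1% of the C09 calls were higher, against 46.0% and 40.2% with TMM and 18.2% and 15.5% with library totals, as the all-gene median moved by 0.33 and by -0.71, so no direction is given for the blocks. BnaC09g47880D had 16.2, 55.4 and 33.2 CPM at heat-only day 4, against 1.26, 1.58 and 1.46 CPM at heat-only day 2 (4.59 ± 0.46, adjusted p = 5.4e-06), and its match BnaA10g23900D changed in the same direction (3.10 ± 0.24, adjusted p = 2.0e-06). BnaA10g24310D had 27.0, 23.1 and 27.6 CPM at day 4, against 56.2, 62.2 and 62.2 CPM at day 2 (-1.22 ± 0.17, adjusted p = 3.4e-05), and BnaC09g48290D had 59.9, 50.2 and 65.6 CPM at day 4, against 153, 157 and 166 CPM at day 2 (-1.44 ± 0.17, adjusted p = 1.3e-05). With RLE factors, library totals and DESeq2, these 4 genes kept their sign and their call.

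Few members were called between TSA day 4 and TSA day 2 cultures. The count was 7 A10 members (5 higher, 2 lower) and 11 C09 members (10 higher, 1 lower), or 5.3% and 3.9%, where the share over all genes was 6.4%, with 4.04% higher and 2.36% lower. With library totals 33.3% of the A10 and 66.7% of the C09 calls were higher, against 71.4% and 90.9% with TMM, and the all-gene median moved by -0.21, so no direction is given for the blocks. Single libraries decided these counts: without TSA day 2 replicate 1 they were 2 and 5, without TSA day 4 replicate 1 they were 2 and 7, and without TSA day 4 replicate 2 the A10 count was 4. BnaA10g23900D had 73.0, 53.8 and 78.8 CPM at TSA day 4, against 9.41, 11.2 and 12.4 CPM at TSA day 2 (2.64 ± 0.23, adjusted p = 3.2e-05). BnaC09g47880D had 48.9, 32.0 and 49.4 CPM at TSA day 4, against 1.79, 2.24 and 2.55 CPM at TSA day 2 (4.32 ± 0.44, adjusted p = 0.00016). BnaC09g47940D had 1.22, 0.999 and 0.435 CPM at TSA day 4, against 29.5, 4.97 and 6.92 CPM at TSA day 2 (-3.96 ± 0.61, adjusted p = 0.0021), and it was the most abundant C09 member at day 0, at 285, 329.5 and 284 CPM.

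At TSA day 8 against day 0, 84 A10 members (51 higher, 33 lower) and 182 C09 members (71 higher, 111 lower) passed the threshold, or 63.6% and 64.5%, where 58.1% of all genes did, 29.0% higher and 29.2% lower. The day 8 libraries may have helped to set the blocks, so nothing is read from these counts. They also depended on which day 8 library was used. With replicate 2 alone, 57 A10 members were higher and 22 lower, and 49 C09 members higher and 131 lower. With replicate 1 alone, 37 A10 members were higher and 43 lower, and 73 C09 members higher and 88 lower. The authors' deposited table, which sets day 8 against the TSA day 4 cultures, lists 37 A10 members as higher and 53 as lower of 142, and 29 C09 members as higher and 142 as lower of 294, at a false discovery rate under 0.05. Of all genes in the authors' deposited table, 13987 were higher and 25042 lower of 68491.

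Values at day 8 are given for the members the rule for named genes picked. BnaA10g23900D had 61.3 CPM in replicate 2 and 89.5 CPM in replicate 1, against 1.45, 1.04 and 0.524 CPM at day 0, and BnaC09g48950D had 29.7 CPM in replicate 2 and 40.3 CPM in replicate 1, against 2.02, 1.86 and 1.05 CPM at day 0. BnaA10g24980D had 1.95 CPM in replicate 2 and 1.11 CPM in replicate 1, against 7.59, 8.75 and 9.17 CPM at day 0. BnaC09g48260D had 0.191 CPM in replicate 2 and 0.849 CPM in replicate 1, against 13, 13.4 and 19.4 CPM at day 0. Both day 8 libraries lay on the same side of all 3 day 0 libraries in these 4 genes.

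Members differed widely in how much they varied. Among members with a mean of at least 5 CPM, the SD of log2(CPM + 1) over the 17 libraries was 4.51, 4.28 and 3.73 in BnaA10g23860D, BnaA10g23870D and BnaA10g25070D, and 4.61, 4.38 and 4.01 in BnaC09g48600D, BnaC09g50000D and BnaC09g48700D. It was lowest in BnaA10g25340D (0.28), BnaA10g25440D (0.28), BnaA10g25050D (0.30), BnaC09g47430D (0.17), BnaC09g47180D (0.20) and BnaC09g50970D (0.28). BnaC09g47430D ran from 10 to 14.6 CPM over the 15 libraries before day 8, and had 10.1 CPM in day 8 replicate 2 and 15.6 CPM in replicate 1. Even this steadiest member thus had its highest value in day 8 replicate 1. BnaC09g50970D, numbered above 50870, had 122.7 CPM in replicate 2 and 89.4 CPM in replicate 1, where the other libraries ran from 67.8 to 116 CPM. The 2 other abundant C09 members, BnaC09g47340D and BnaC09g47330D, had their highest levels at heat-only day 2, with 355 to 401 CPM and 288 to 315 CPM, and at day 8 had 70.1 and 72.5 CPM in replicate 2 and 78.2 and 85.6 CPM in replicate 1. BnaA10g24610D, the sixth of the abundant A10 members, had 189, 158 and 321 CPM in TSA day 2 libraries and 1.79, 1.42 and 1.18 CPM in heat-only day 2 libraries, and at day 8 had 123 CPM in replicate 2 and 35.3 CPM in replicate 1.

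The group in which a member was highest was also counted. Among members with a mean of at least 5 CPM, the mean was highest at TSA day 8 in 20 of 67 A10 members (29.9%) and in 17 of 139 C09 members (12.2%), against 20.2% of all 30727 genes of that level. It was highest at day 0 in 22.4% of A10 and 30.2% of C09 members, against 20.2% of all genes. The day 8 mean is of 2 libraries that differ in opposite directions in the blocks. Those libraries may have helped to set the blocks, so nothing is read from these shares.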

How the data were processed

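Raw counts per gene are what the authors deposited, per the file headers, for 17 libraries. Their own table of log2 fold changes, with an FDR (adjusted p-value) per gene per the file headers, was used in 1 comparison. The submitters' processing notes name limma. Aligner, counter and genome build: not given in the sources used here. Replicates are biological per the series text, but whether each came from separate plants is not stated, so p-values measure only the spread between these libraries.

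All tests used the counts as deposited, in edgeR 4.0.16 (quasi-likelihood, robust, TMM, filterByExpr; R 4.3.3), with 1 coefficient per group over 17 libraries, two-sided, adjusted by Benjamini-Hochberg over 64330 genes. Calls needed an adjusted p below 0.05. Standard errors of log2 fold changes were the fold change divided by the square root of F. Of the members, 21 on A10 and 41 on C09 failed the filter, none above a mean of 0.174 CPM, and were not tested. The fit was tested on simulated data. Alternatives were DESeq2 1.42.0, RLE factors, library totals, no filter, the replicate number as a block, and leaving out single libraries. Ratios between 2 libraries are log2 of CPM + 0.5, for genes averaging at least 5 CPM in them.

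The members, lists and rules were chosen with earlier results of these data known. Members named are, per block, the 6 with the highest mean CPM, the called member of lowest p in each direction of each of 6 comparisons (mean of 5 CPM or more in the higher group, 10 counts or more in the lower), the 2 at each edge with the 2 nearest genes outside, and the 3 widest and 3 narrowest in spread among those with a mean of at least 5 CPM. Members with a symbol or sequence in the reference were to be named too, and there were none. Others were named after their values were seen. Per the labels, same-numbered day 0, TSA day 2 and TSA day 8 libraries shared a sequencing lane (4, 5 or 6), which pairs them. The deviations of day 8 libraries from their group mean correlated with those of day 0 at 0.12 for replicate 1 and -0.07 for replicate 2. No run or lane is used for the other libraries, so run and group cannot be told apart where these are compared.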

Additional observations from a re-analysis of the deposited data

Results flagged for a closer look

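For 10 of the named members the effect of TSA (heat plus TSA against heat alone) differed between day 4 and day 2, by a test of the difference itself within the same edgeR fit (quasi-likelihood, Benjamini-Hochberg over all genes). Each value is the day 4 effect minus the day 2 effect on the log2 scale. The effect of TSA was more negative at day 4 in BnaA10g23880D (-3.122, adjusted p = 0.00044) and BnaC09g47860D (-3.09, adjusted p = 0.00055), whose heat-only levels were higher at day 4 while their TSA levels stayed between 13.5 and 17.6 CPM. It was also lower at day 4 in BnaA10g23970D (-1.946, adjusted p = 0.0023).

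In BnaA10g24610D the difference was -4.031 (adjusted p = 0.00092): TSA cultures averaged 163 CPM at day 4 and 223 CPM at day 2, and heat-only cultures 17.2 CPM at day 4 and 1.46 CPM at day 2. In BnaC09g48380D the difference was -2.403 (adjusted p = 0.026), with a log2 fold change with TSA of 5.37 at day 4 and 7.77 at day 2. In BnaA10g23820D it was -1.091 (adjusted p = 0.028), with a log2 fold change with TSA of -0.01 at day 4 and 1.08 at day 2.

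The effect of TSA was higher at day 4 in BnaA10g24310D (1.125, adjusted p = 0.0028), BnaC09g48290D (1.286, adjusted p = 0.0016), BnaC09g47240D (1.119, adjusted p = 0.029) and BnaC09g47340D (0.6833, adjusted p = 0.036). With RLE factors BnaC09g47240D and BnaC09g47340D lost the call (adjusted p = 0.12 and 0.34), and with library totals BnaA10g23820D and BnaC09g48380D did (adjusted p = 0.16 and 0.051). These 10 are among the 25 A10 and 57 C09 members called in this test. The labels leave the TSA dose of the day 4 libraries open between 0.5 and 0.05 µM, and its part in these differences was not tested.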

How the results depend on the processing

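The 12 counts of called members stayed within 1.5 times of their values with DESeq2, RLE factors, library totals and the replicate block. With the replicate block, for example, 84 A10 and 180 C09 members were called at day 8 against day 0, and no count moved by more than 1.5 times. The other groups, without a lane in common, share only a number: deviations of same-numbered libraries correlated at 0.29, 0.04 and 0.52 between TSA day 4 and TSA day 2, and at 0.28, 0.04 and 0.31 between heat-only day 4 and day 2, and 3 and 4 of 6 libraries correlated best with their own number. Without the filter on low counts, 4 A10 members were called between TSA day 4 and TSA day 2, in place of 7. Leaving out single libraries gave 2 to 8 A10 and 5 to 13 C09 members there. The A10 share of both blocks rests on which members weigh most. With each block shortened at its inner edge by 20% of its members it was 20.7% at TSA day 4, 20.1% (day 2) and 12.6% (day 4) with heat only, and 25.4% at day 0. With members weighted equally it was 50.2%, 50.9% and 52.9% at TSA days 2, 4 and 8, 48.3% and 49.1% with heat only at days 2 and 4, and 48.6% at day 0. Without the 10 most abundant members it was 27.2% at TSA day 4, and 24.9% and 27.2% with heat only at days 2 and 4. Under each of these 3 settings the heat-only average was no longer above that with TSA at the same day, unlike the order over all members. Without the 10 most abundant members the heat-only and TSA libraries overlapped at both days. At day 4 they ran from 26.9% to 27.6% with heat only and from 26.8% to 27.6% with TSA. The shortening removed the 3 dominant A10 genes of heat-only cultures but kept BnaC09g48600D. Scaling turned the directions of calls, as given beside each comparison: with library totals 9 of the calls of named members changed sign, for example BnaA10g24310D for TSA against heat only at day 2 (0.26, against -0.40 with TMM). Calls of named genes were also lost, 9 with library totals, 9 with RLE factors and 7 with DESeq2. For the day 8 pair, alternatives chosen after seeing the data gave A10 medians of 0.59 (library totals), 0.64 (2 CPM added) and 0.82 (20 CPM minimum), and C09 medians of -0.69 (library totals) and -0.46 (20 CPM minimum). These medians kept their sign. With 2 libraries at day 8, the spread there rests on a single difference.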
